A study of Mus musculus with 4 samples.

Results

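Tight junctions were followed through 8 genes: the claudins Cldn1, Cldn4, Cldn7 and Cldn8, the membrane proteins Ocln and F11r, and the cytoplasmic plaque genes Tjp1 and Cgn. Members were all probe sets that the platform annotation assigns to these symbols alone, which gave 14 probe sets for the 8 genes, of 18193 genes named on the array. The cells were primary keratinocytes of newborn C57BL/6 mice. Of the 4 arrays, 1 came from each of these groups: p38a-KO cells 4 h after UVB at 75 mJ/cm2, p38a-KO cells left unirradiated, WT cells 4 h after the same dose and WT cells left unirradiated. The knockout is of p38alpha, the stress kinase encoded by Mapk14. The descriptions of the KO samples carry the code K14C without expanding it, and neither the deleted part of the gene nor the number of animals per culture is given in the sources used here. The unirradiated cells are labelled as controls at 0 h, so 4 h in culture and irradiation cannot be told apart. Each group had 1 array, so a difference between 2 arrays has no replicate behind it and its error is unknown.

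Tight junctions seal the space between epithelial cells. Claudins form the strands that set which ions and solutes pass, while occludin and the immunoglobulin-like adhesion molecule encoded by F11r (JAM-A) lie in the same membrane contacts. ZO-1, encoded by Tjp1, and cingulin, encoded by Cgn, link those proteins to actin. In the epidermis these junctions are found in the granular layer, and mice that lack claudin-1 die after birth from loss of water through the skin.

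Values are MAS5 signal per probe set in linear units. A floor of 24.9 units, the median over non-control probe sets of their mean signal, was applied before taking log2, and 11379 genes with a mean signal at or above it were tested, each through its brightest probe set. Of the members, 7 of 8 passed this filter, and their brightest probe sets were above the floor on all 4 arrays. Signal was lower after UVB for most genes on the array, with a median log2 difference of -0.82 in KO-labelled and -0.70 in WT cells. Quantile normalization moved these medians to 0.06 and 0.05, and median centring moved them to 0.28 and 0.33, so each member is also given by its place among all tested genes. Mapk14 was higher in the cells labelled KO, against the label, at 646.8 units after UVB and 1449 unirradiated, against 292.5 and 985.4 units in WT cells. It was 2.21-fold higher after UVB, above 99.2% of tested genes, and passed the limma genotype fit as higher (log2 effect 0.85, SE 0.15, adjusted p = 0.0295). These Mapk14 values come from its brightest probe set alone. That probe set may lie outside the deleted part and then checks nothing, so the samples are called KO-labelled and every genotype direction rests on the labels. Keratinocyte identity was clear on every array, where Krt5 read at least 12614 units and Krt14 at least 11820 units.

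After UVB, as deposited, all 7 tested members read lower in both genotypes, while under quantile normalization or median centring only Ocln, Tjp1 and Cldn1 stayed lower in both genotypes under both scalings. The UVB differences of these 3 genes were also the lowest of the tested members relative to the array. Ocln fell by 2.40 on the log2 scale over both genotypes, Tjp1 fell by 2.09 and Cldn1 fell by 1.67. These falls were smaller after rescaling, at -1.35, -1.41 and -1.22 for Ocln, Tjp1 and Cldn1 with quantile normalization and -1.30, -0.99 and -0.57 with median centring. Cgn, F11r, Cldn7 and Cldn4 fell by 1.01, 0.90, 0.75 and 0.66, which is near the median of -0.75 over all genes tested. All 7 passed the limma fit of irradiation and genotype (adjusted p between 3.07e-06 and 0.0200), but so did 69.4% of all genes in the same direction, and 0.703% passed as higher. That test has no spread between cultures to measure. Its error joins how far the responses of the genotypes disagree, on 1 residual degree of freedom, with the variance of genes of like signal. The latter carries most of the weight, with 8.13 prior degrees of freedom, so a member's adjusted p does not rest on its own agreement alone. In these bulk samples, fewer cells of a type and less RNA per cell cannot be told apart.

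Ocln, which encodes the 4-pass membrane protein of the junction strands, had a signal of 56.8 units in irradiated and 254.6 units in unirradiated KO-labelled cells. In WT cells it read 49.7 units irradiated and 309.8 units unirradiated. Both irradiated values lay far under both unirradiated ones, 4.48-fold lower in KO-labelled and 6.24-fold lower in WT cells. Over both genotypes the log2 signal fell by 2.40 (SE 0.20, limma adjusted p = 1.14e-05). Only 5.35% of tested genes had a lower UVB difference in KO-labelled cells and 1.92% in WT cells. The signal range of Ocln, 100 to 400 units, had low medians as well, at -1.03 in KO-labelled and -0.96 in WT cells on the log2 scale. A second, dimmer Ocln probe set read 25.1 and 115.5 units in irradiated and unirradiated KO-labelled cells, and 41.4 and 83.7 units in irradiated and unirradiated WT cells. It was also lower after UVB, 4.60-fold in KO-labelled and 2.02-fold in WT cells, so the probe sets disagree on which genotype had the larger difference.

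Tjp1, the gene of the ZO-1 scaffold to which claudins and occludin bind, was measured by 1 probe set. It read 369.6 units in irradiated and 1423 units in unirradiated KO-labelled cells, against 363.5 units in irradiated and 1703 units in unirradiated WT cells. The irradiated arrays were close to each other and both were well under the unirradiated ones. Signal was 3.85-fold lower in KO-labelled and 4.69-fold lower in WT cells (log2 fall of 2.09, SE 0.12, limma adjusted p = 3.28e-06). Its UVB difference lay above those of 8.45% of tested genes in KO-labelled and 4.48% in WT cells. Cgn, the gene of the plaque protein cingulin, read 148.8 and 316.7 units in irradiated and unirradiated KO-labelled cells and 158.2 and 300.7 units in irradiated and unirradiated WT cells. It was 2.13-fold and 1.90-fold lower as deposited, close to the array-wide shift, and its sign turned to 0.04 and 0.14 on the log2 scale under median centring. Its second probe set had irradiated values under the floor, at most 10.7 units.

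F11r, which encodes the adhesion molecule JAM-A, read 750.7 units in irradiated and 1365 units in unirradiated KO-labelled cells, and 740.7 units in irradiated and 1428 units in unirradiated WT cells. Its values hardly separated the genotypes in either condition. As deposited it was 1.82-fold lower in KO-labelled and 1.93-fold lower in WT cells, in the middle of the array at 47.2% and 37.2% of tested genes below it. Under median centring those differences turned to 0.27 and 0.12 on the log2 scale. The second F11r probe set was above the floor on 1 array only, the irradiated KO-labelled one, at 26.8 units.

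**Figure D1:**
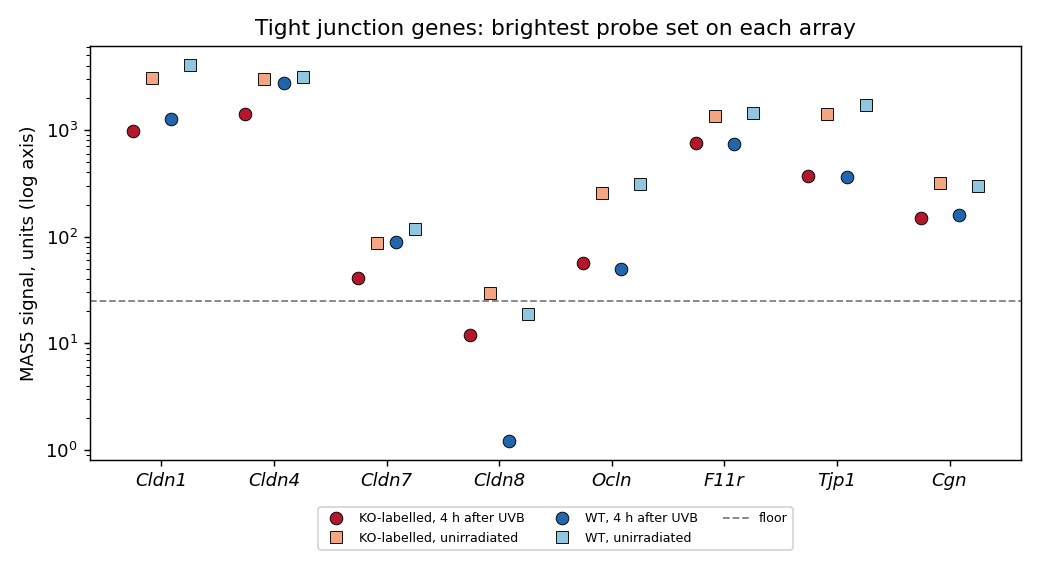
MAS5 signal (log axis, units) of the brightest probe set of each gene on the 4 arrays, 1 point per array, with the floor of 24.9 units dashed. Among the tested genes, Ocln, Tjp1 and Cldn1 show the widest gap between irradiated (circles) and unirradiated (squares) arrays. Cldn8, which was not tested, lies above the floor only in unirradiated KO-labelled cells, at 29.6 units.

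Cldn1, the claudin required for the skin barrier, read 984.8 units in irradiated and 3097 units in unirradiated KO-labelled cells. In WT cells it read 1274 units irradiated and 4084 units unirradiated. The UVB difference was nearly the same size in both, 3.14-fold lower in KO-labelled and 3.20-fold lower in WT cells (log2 fall of 1.67, SE 0.095, limma adjusted p = 3.07e-06). Genes of its signal range, 1600 to 6400 units, had medians of only -0.36 in KO-labelled and -0.26 in WT cells, on the log2 scale. A second bright Cldn1 probe set read 421.6 and 1825 units in irradiated and unirradiated KO-labelled cells, and 517.5 and 2250 units in irradiated and unirradiated WT cells. That set gave 4.33-fold and 4.35-fold lower signal after UVB. Another set read 37.0 and 58.1 units in irradiated and unirradiated KO-labelled cells and 35.9 and 37.3 units in irradiated and unirradiated WT cells, and it did not pass the fit over probe sets (limma adjusted p = 0.255). The remaining set was under the floor on every array.

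Cldn4, a claudin of the granular layer, differed from Cldn1 in where it was low. Its signal was 1399 units in irradiated and 3014 units in unirradiated KO-labelled cells, against 2735 units in irradiated and 3162 units in unirradiated WT cells. The irradiated KO-labelled array stood apart from the other 3. As deposited, Cldn4 was 2.15-fold lower after UVB in KO-labelled and 1.16-fold lower in WT cells, and 80.1% of tested genes had a lower UVB difference in WT cells, against 33.6% in KO-labelled cells. Under quantile normalization the log2 differences were -0.61 and 0.10, and under median centring 0.02 and 0.86, so the sign of the response depended on the scaling, and the KO-labelled value was the lower one under all 3. The fall of 0.66 over both genotypes (log2 scale, SE 0.17, limma adjusted p = 0.00786) averages these unlike responses. As deposited, genes of the same signal range, 1600 to 6400 units, had medians of -0.36 in KO-labelled and -0.26 in WT cells. Cldn4 lay at -1.11 and -0.21.

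Cldn7, which in many epithelia also lies along the lateral membrane outside the strands, was dim, and its lowest array was the same as that of Cldn4. It read 40.6 units in irradiated and 87.6 units in unirradiated KO-labelled cells, and 89.7 units in irradiated and 118.2 units in unirradiated WT cells. The irradiated KO-labelled array was under the other 3. Signal was 2.16-fold lower after UVB in KO-labelled and 1.32-fold lower in WT cells as deposited, whereas quantile normalization gave log2 differences of -0.03 and 0.65 and median centring gave 0.02 and 0.67. Cldn8 had 11.9 units in irradiated and 29.6 units in unirradiated KO-labelled cells, against 1.22 units in irradiated and 18.9 units in unirradiated WT cells. With 3 of 4 values under the floor, Cldn8 was not tested and no direction is given for it.

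By the threshold of 2-fold, 6 of the 7 tested members were lower after UVB in KO-labelled cells, where 39.3% of all tested genes were, and 3 of 7 were lower in WT cells, where 34.8% were. No member was higher, against 0.167% of genes in KO-labelled and 0.58% in WT cells. The median difference of the 7 was -1.11 on the log2 scale in KO-labelled cells, against -0.82 over all genes. In WT cells it was -0.95, against -0.70. With quantile normalization the members' medians were -0.61 and -0.41 in KO-labelled and WT cells. With median centring they were 0.02 and 0.12.

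Among the members, the widest gaps between genotypes were in claudins after UVB. In irradiated cells Cldn7 was 2.21-fold lower and Cldn4 1.95-fold lower in KO-labelled than in WT cells, and only 1.03% and 1.68% of tested genes had a lower difference. Cldn1 was 1.29-fold lower. The 4 other tested members were within 1.14-fold of WT in either direction, with Ocln 1.14-fold higher, Tjp1 1.02-fold higher, F11r 1.01-fold higher and Cgn 1.06-fold lower; the signs of Tjp1 and F11r turned under both other scalings. Of the 7, 1 member, Cldn7, was past 2-fold lower, where 1.47% of all genes were, and 0 were past 2-fold higher, where 1.41% were. Under quantile normalization and median centring Cldn7 stayed lower, by 1.26 and 1.24 on the log2 scale, and Cldn4 by 0.92 and 1.07.

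Without irradiation the gaps were smaller than after UVB for Cldn4 and Cldn7, and larger for Cldn1, Ocln, Tjp1 and F11r. Cldn7 was 1.35-fold lower in KO-labelled cells, Cldn1 1.32-fold, Ocln 1.22-fold, Tjp1 1.20-fold, Cldn4 and F11r 1.05-fold each, and Cgn was 1.05-fold higher, a sign that turned under both other scalings. The members' median was -0.26 on the log2 scale, against 0.16 for all genes, and 0 members were past 2-fold in either direction, where 1.63% of genes were higher and 0.729% lower. Of the 6 members that read lower, Cldn7 and Cldn1 lay among the lowest of the array, above 4.59% and 5.12% of genes. The second Ocln probe set went the other way from the brightest in both conditions, 1.38-fold higher in unirradiated and 1.65-fold lower in irradiated KO-labelled cells.

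Of the 7 members, 0 passed the limma test for genotype over both conditions, where 0.967% of all genes passed as higher and 0.642% as lower. At an unadjusted p under 0.05, 3 of 7 members were lower, namely Cldn1, Cldn4 and Cldn7, and 0 were higher, against 3.74% and 13.7% of all genes. The number lower was 2 of 7 without the intensity trend, where Cldn4 was lost, and 0 of 7 with genotype alone in the model. The log2 genotype effects were -0.39 for Cldn1 (SE 0.095, limma adjusted p = 0.0876), -0.52 for Cldn4 (SE 0.17, limma adjusted p = 0.178) and -0.79 for Cldn7 (SE 0.24, limma adjusted p = 0.152). Those of Ocln, Tjp1, F11r and Cgn lay between -0.12 and -0.01. Cldn1 passed as lower under quantile normalization, at -0.48 (limma adjusted p = 0.0309), and under median centring, at -0.52 (limma adjusted p = 0.0154). It did not pass under the other alternatives, with -0.11 for the mean over probe sets (limma adjusted p = 0.674), and its adjusted p was 0.370 without the trend and 1.0 with genotype alone. The dim Cldn1 probe set that missed the UVB fit had a genotype effect of the other sign, at 0.34 (limma adjusted p = 0.583).

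The UVB responses themselves differed between the genotypes, as KO-labelled minus WT on the log2 scale, by -0.90 for Cldn4 and -0.71 for Cldn7. Only 4.16% and 7.55% of genes had a lower difference of responses. Ocln and Tjp1 went the other way, by 0.48 and 0.28, and Cldn1, F11r and Cgn differed by 0.03, 0.08 and -0.16. The sign for Ocln holds for its brightest probe set only. Its second probe set had log2 UVB responses of -2.20 in KO-labelled and -1.01 in WT cells. The mean over Ocln probe sets gave a difference of -0.35. By its brightest probe set, no member reached 2-fold in this comparison, where 1.34% of genes were higher and 2.94% lower. These differences have no test, since no degree of freedom is left.

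Other claudins were set beside these, from a list of 20 entries of which 18 were on the array and 7 were tested. Cldn3, a claudin gene next to Cldn4 in the RefSeq order of protein-coding genes, read 150.0 units in irradiated and 339.8 units in unirradiated KO-labelled cells. In WT cells it read 485.9 units irradiated and 603.6 units unirradiated. Both KO-labelled arrays were under both WT arrays, 3.24-fold lower after UVB and 1.78-fold lower without it, and the genotype test passed (log2 effect -1.26, SE 0.20, limma adjusted p = 0.0172). All 4 Cldn3 probe sets had this order, with 3.24-fold to 5.21-fold lower signal after UVB and 1.78-fold to 2.34-fold lower signal without it. Cldn23 read 27.4 and 48.1 units in irradiated and unirradiated KO-labelled cells, against 76.4 and 117.0 units in irradiated and unirradiated WT cells, and also passed as lower by genotype (log2 effect -1.38, SE 0.24, limma adjusted p = 0.0253). Both calls were lost when limma was run without the intensity trend, with adjusted p = 0.299 and 0.270, or with genotype alone in the model, with adjusted p = 1.0 for each. The same was true of every genotype call on the array, since 0 genes passed in either direction under these 2 models, where 10.3% of genes were higher and 3.12% lower at an unadjusted p under 0.05 without the trend, and 0.149% and 0.272% with genotype alone.

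Cldn12, by contrast, was 1.51-fold higher in irradiated and 1.16-fold higher in unirradiated KO-labelled cells, and its genotype effect of 0.40 did not pass (limma adjusted p = 0.148). It was 1.64-fold lower after UVB in KO-labelled and 2.13-fold lower in WT cells as deposited, with 0.42 and -0.02 on the log2 scale under median centring. Cldn22 had irradiated values under the floor, and was at least 2.38-fold lower in KO-labelled and at least 2.09-fold lower in WT cells. Cldnd1, a claudin-domain gene, was within 1.07-fold after UVB in both genotypes as deposited, with log2 differences of 0.69 and 0.53 in KO-labelled and WT cells under quantile normalization and 1.23 and 1.14 under median centring. In all, 4 of the 7 fell in the UVB fit, 0 rose and 3 did not pass, against 69.4% of all genes that fell, and 2 of 7 were lower by genotype, against 0.642% of all genes.

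**Figure D2:**
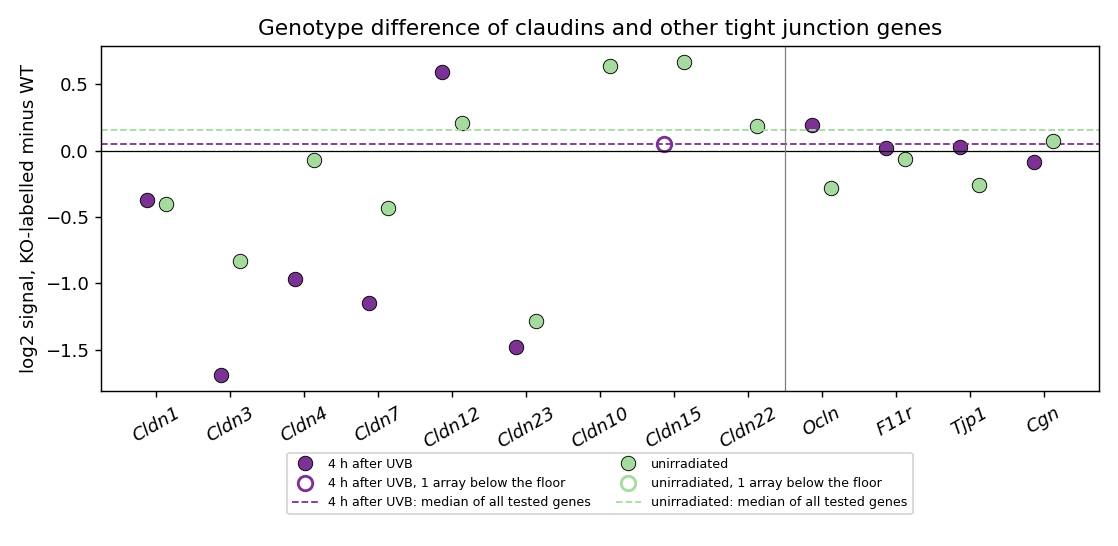
Difference in log2 signal, KO-labelled minus WT, after UVB (purple, left) and unirradiated (green, right), for the 9 tested claudins and, right of the line, the 4 other tested members, as deposited and 1 point per pair of arrays. Open circles have 1 array under the floor, pairs with both under it are not drawn, and dashed lines give the medians of all tested genes; Cldn3, Cldn4, Cldn7 and Cldn23 lie between -1.70 and -0.97 after UVB, while Cldn12 lies at 0.59.

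Cell type markers also moved with genotype, in the model whose calls depend on the trend. Without the trend, or with genotype alone in the model, 0 genes of the array passed by genotype, these markers included. Summed signal of 12 fibroblast markers was 6267 units in irradiated and 9085 units in unirradiated KO-labelled cells, against 3741 and 4921 units in irradiated and unirradiated WT cells. Of these markers 8 of 12 rose by genotype, 0 fell and 4 did not pass. Over all tested genes, 0.967% rose and 0.642% fell by genotype. All 8 markers that rose were higher in KO-labelled cells in both conditions under both other scalings too. Among 11 tested spinous and granular markers, Krt1 and Krt10 rose, and Tgm1, Lor and Sbsn fell, with Tgm1 2.54-fold and Lor 2.44-fold lower in irradiated KO-labelled cells. Their summed signal was 16448 and 18577 units in irradiated and unirradiated KO-labelled cells, against 18489 and 20366 units in irradiated and unirradiated WT cells. Of the simple epithelial markers Krt7 was lower by genotype, the other 3 tested did not pass, and the sums of all 6 were 1631, 2794, 2305 and 3278 units in the same order of arrays. Basal markers summed to 29711, 35081, 30040 and 36832 units and melanocyte markers to 5637, 8694, 4846 and 6179 units, with 0 of 7 and 0 of 8 passing by genotype. Leukocyte and endothelial markers were mostly under the floor, with 3 of 8 and 1 of 8 tested, 0 of them passing, none listed at 0, and sums of at most 194.4 and 140.6 units. The part of the fibroblast and differentiation markers in the claudin differences was not tested.

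By brightest probe set, Cldn4 was the member whose response differed most between the genotypes. Ocln had the lowest UVB difference relative to the array, and that of F11r stayed near the array median. The sequences before the start site of Cldn4, Ocln and F11r are shown. They are 250 bases upstream of the RefSeq start in GRCm38.p6, 5′ to 3′ on the gene's strand. Capitals mark the AP-1 motif TGANTCA and the E-box CAGGTG, to which Snail repressors bind, on either strand. Cldn4 lies at chr5:134946935-134947184 (minus strand), Ocln at chr13:100552719-100552968 (minus strand) and F11r at chr1:171437311-171437560 (plus strand).
Cldn4: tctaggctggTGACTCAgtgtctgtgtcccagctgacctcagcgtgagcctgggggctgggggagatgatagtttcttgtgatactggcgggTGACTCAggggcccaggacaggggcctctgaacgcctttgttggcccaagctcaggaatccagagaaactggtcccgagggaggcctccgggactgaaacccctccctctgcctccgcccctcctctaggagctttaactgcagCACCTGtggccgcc
Ocln: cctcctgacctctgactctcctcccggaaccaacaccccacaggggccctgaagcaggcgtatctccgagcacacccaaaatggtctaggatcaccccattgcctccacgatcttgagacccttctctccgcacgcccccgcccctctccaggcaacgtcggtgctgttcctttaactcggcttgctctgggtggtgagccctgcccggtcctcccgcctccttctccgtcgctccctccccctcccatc
F11r: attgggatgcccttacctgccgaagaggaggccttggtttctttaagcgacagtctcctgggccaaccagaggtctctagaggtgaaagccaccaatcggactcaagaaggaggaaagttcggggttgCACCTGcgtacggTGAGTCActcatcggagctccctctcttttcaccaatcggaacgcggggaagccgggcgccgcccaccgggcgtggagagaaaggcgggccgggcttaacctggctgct
The Cldn4 window held 2 AP-1 motifs, starting 240 and 158 bases before the start site, and 1 E-box at 14 bases. F11r held 1 AP-1 motif at 109 bases and 1 E-box at 122 bases, and the motifs do not overlap. Of 32817 windows of the same length in the RefSeq table, 6.75% held at least 1 AP-1 motif, 0.338% held 2 or more, and 17.2% held an E-box. The letters of neither motif were found in the windows of Ocln, Tjp1, Cldn1, Cldn7 and Cgn, taken at the outermost start where a gene has several. A match is a description of letters, and 7 of the 8 members had an entry in the table.

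Patterns over the arrays were compared by distance, and no grouping was tested. By Euclidean distance between log2 signals centred on each gene's mean over the 4 arrays, Cldn4 and Cldn7 were each other's nearest member (distance 0.30), as were Ocln and Tjp1 (0.34) and F11r and Cgn (0.16). Cldn1 was nearest to Tjp1, at a distance of 0.51. The search over tested genes left out gene-model and clone names, Y-linked genes and Xist. Among the rest, the nearest to Cldn4 were Dusp5 (0.08) and Lipg (0.10), to Cldn7 Tmc4 (0.15) and Sdr16c6 (0.16), and to Cldn1 Gclc (0.05) and Ankrd22 (0.08). Nearest to Ocln were Ajuba (0.09) and Myc (0.10), to Tjp1 Zfp472 (0.06) and Acvr2a (0.06), to F11r Slc35g1 (0.02) and Lrrcc1 (0.02), and to Cgn Pias2 (0.03) and Cluh (0.03). Irradiated values of Zfp472 and Lrrcc1 were under the floor. Every tested member lay closer to both genes named for it than to its nearest member. The search over all genes had far more candidates than the search over members. That outcome was therefore likely in advance and does not show whether the members form pairs. Each distance rests on 4 arrays alone.

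Other genes of the junction mostly read lower after UVB as deposited, and the counts given for them hold for that scaling. Of 18 scaffold and polarity genes on the array, 17 were tested and 17 fell, against 69.4% of all genes, with a median of -1.28 on the log2 scale against -0.75. Amotl2, an angiomotin-family scaffold, was 5.49-fold lower in KO-labelled and 5.01-fold lower in WT cells. Tjap1, a plaque protein, was 3.91-fold and 2.10-fold lower, and Pard6g, a partner of the polarity kinase aPKC, 2.71-fold and 3.25-fold lower. Prkci, the gene of that kinase, was 1.78-fold and 2.15-fold lower. Under median centring Prkci turned to 0.30 in KO-labelled cells, and the list's medians were -0.11 in KO-labelled and -0.23 in WT cells.

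Of the 11 other membrane proteins, 8 were tested, 5 fell, 0 rose and 3 did not pass. The share that fell was 62.5%, under the 69.4% of all genes. Marveld2, which encodes tricellulin and lies next to Ocln in the RefSeq order, was 2.67-fold lower in KO-labelled and 2.60-fold lower in WT cells. Cxadr, a junctional adhesion protein, was 2.23-fold and 2.45-fold lower, and Lsr, which recruits tricellulin to 3-cell contacts, 1.80-fold and 1.31-fold lower, turning to 0.29 and 0.67 on the log2 scale under median centring. Crb3, a polarity protein, read 238.5 units in irradiated and 332.8 units in unirradiated KO-labelled cells, against 99.3 units in irradiated and 346.9 units in unirradiated WT cells. The irradiated WT array stood apart from the other 3, the reverse of Cldn4, and the genotype effect did not pass (limma adjusted p = 0.286). Of 10 signalling partners on the array, 8 were tested, and 5 fell, 0 rose and 3 did not pass, again 62.5% against 69.4% of all genes.

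Adherens junction and desmosome genes were set beside the members by counts, medians and single genes. All 15 adherens junction genes fell in the UVB fit, where 69.4% of all genes did. Their median was -0.93 on the log2 scale, against -1.01 for the 7 tight junction members and -0.75 for all genes. Cdh1, the gene of E-cadherin, fell by 0.29 and Ctnnb1, the gene of beta-catenin, fell by 0.50, both with signs that turned under median centring. In KO-labelled cells Nectin1, an adhesion molecule, was at least 4.61-fold lower and Ctnnd1, the gene of p120-catenin, 2.92-fold lower, and in WT cells Nectin3 was at least 3.51-fold lower and Nectin1 3.47-fold lower. Of 13 tested desmosome genes 11 fell (84.6%, against 69.4% of all genes) and 2 did not pass, with a median of -0.65. Dsp, the gene of desmoplakin, fell by 0.39 and the plakophilin gene Pkp1 fell by 0.65, again with signs that turned under median centring, while Pkp4 was 2.92-fold lower in KO-labelled and 2.51-fold lower in WT cells and Pkp2 2.02-fold lower in WT cells, a sign that turned to 0.04 under quantile normalization. By genotype, 1 of 15 adherens junction genes rose, Lima1 (log2 effect 0.57, SE 0.11, limma adjusted p = 0.0434), where 0.967% of all genes did. Of 13 desmosome genes 1 fell, Dsc2 (log2 effect -0.98, SE 0.12, limma adjusted p = 0.00635), where 0.642% of all genes did. Dsc2 was 2.07-fold lower in irradiated KO-labelled cells. Differences between the lists were not tested.

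**Figure D3:**
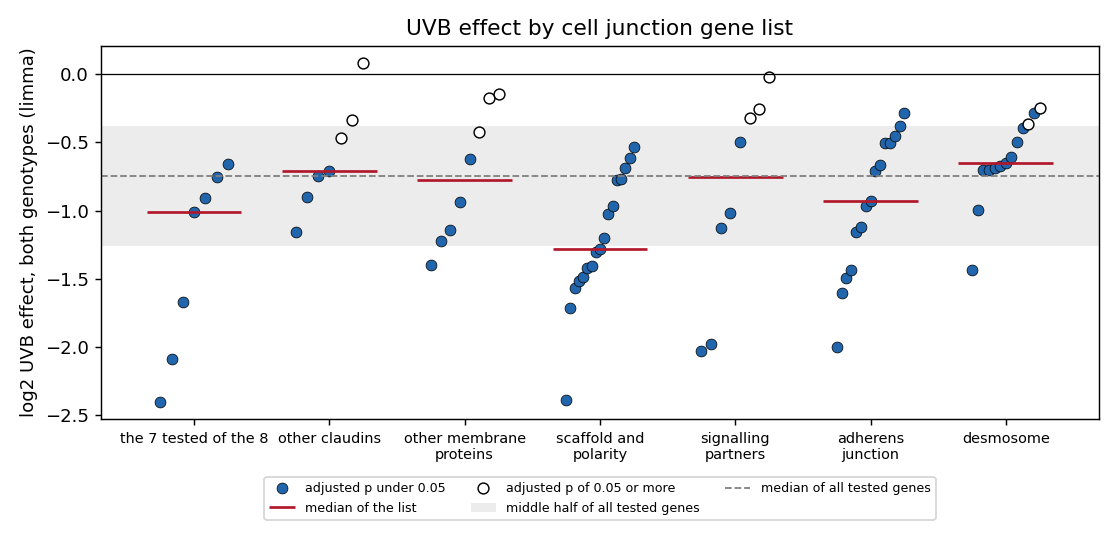
UVB effect on the log2 scale over both genotypes (limma) for each tested gene of 7 junction lists, as deposited, 1 point per gene. Filled points passed at an adjusted p under 0.05, red bars are list medians, and the dashed line and band are the median and interquartile range of all tested genes; Ocln and Tjp1 are the lowest points of the first list, at -2.40 and -2.09.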

How the data were processed

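Biotin-labelled RNA of 4 keratinocyte cultures was hybridised to Affymetrix arrays, 1 per group, with groups taken from the sample titles. The authors deposited linear signal intensity for each probe set, made with MAS5 per the submitters' processing notes. Its version and scaling target, and any detection calls, are not stated in the labels. The arrays had unequal medians (18.7 to 34.5 units over probe sets), so scaling affects every UVB difference.

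Of 45101 probe sets, 34945 carry 1 gene symbol in the platform annotation, 932 several and 9160 none, beside 64 controls; 34741 were found by gene ID in the RefSeq table (GRCm38.p6), with 0 symbols changed. A gene was represented by its brightest probe set. Values were raised to the floor of 24.9 units and log2-transformed. Genes count as higher or lower at 2-fold, and a fold against a value under the floor is a bound. limma 3.58.1 (R 4.3.3) fitted irradiation and genotype to 11379 genes with an intensity trend and Benjamini-Hochberg adjustment at 0.05. The fit has 1 residual and 8.13 prior degrees of freedom. Its code was run on simulated data that had neither the array-wide shift nor the floor. That run therefore does not measure the error of the calls made here.

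Members and gene lists were chosen with earlier results of these data known. All members are named. From the other lists the text names the 2 genes of highest signal and the 2 largest differences past 2-fold in each direction of each comparison, and for each tested member the 2 genes with the nearest pattern. The signalling partners that this rule selects are not reported here. Lima1 and the keratin and granular markers named for genotype were chosen after their values were seen. Cldn5 and Esam are in a junction and the endothelial list, and Dsg1a is in 2 lists. Alternatives were quantile normalization, median centring, the mean over probe sets, floors of 9.38 and 128.9 units, 1.5-fold and 3-fold as the threshold, leaving out cross-hybridising probe sets, limma without the trend or with 1 factor, and probe sets as features.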

Additional observations from a re-analysis of the deposited data

How the results depend on the processing

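Scaling changed several UVB results. With quantile normalization 3 of 7 members were past 2-fold lower in KO-labelled cells, against 6 as deposited, and in the UVB fit 4 of 7 fell. With median centring 1 was past 2-fold lower in KO-labelled cells, and in the UVB fit 3 fell and 1 rose. Under centring the KO-labelled responses turned to 0.0239 for Cldn4, 0.0193 for Cldn7 and 0.0408 for Cgn on the log2 scale, and the limma UVB effects to 0.44 for Cldn4 (adjusted p = 0.0323), 0.35 for Cldn7, 0.20 for F11r and 0.0918 for Cgn, with Cldn7 at 0.31 under quantile normalization. Ocln, Tjp1 and Cldn1 fell in the UVB fit under every alternative with 1 value per gene, and with probe sets as features 9 of 10 member probe sets fell, the exception being a dim one of Cldn1. The fit passed 80 genes as higher and 7899 as lower as deposited, 2293 and 2271 with quantile normalization, and 4228 and 1720 with centring. Past 2-fold after UVB, 19 genes were higher and 4473 lower in KO-labelled cells and 66 and 3958 in WT cells, against 457 and 924, and 590 and 1067, with quantile normalization and 1040 and 755, and 1323 and 852, with centring. By genotype limma passed 110 genes as higher and 73 as lower, 63 and 120 with quantile normalization and 92 and 175 with centring, and 0 in either direction without the trend or with genotype alone. For genotype, 1 of 7 members passed as lower, Cldn1, under each of these 2 scalings, against 0 as deposited. After UVB, 2 members were past 2-fold lower by genotype with centring, where 376 of 11600 genes were. With the floor at 128.9 units 0 were, against 73 of 6803 genes, and Cldn7 was not tested. A threshold of 1.5-fold gave 2 lower by genotype after UVB, against 599 of 11379 genes. It gave 5 lower after UVB in WT cells, against 6533 genes, and 2 lower in the difference of responses, against 1296 genes. At 3-fold, 0 were lower by genotype after UVB, against 46 genes, and 3 after UVB in KO-labelled cells, against 1839 genes. Without the trend Cldn4 did not pass in the UVB fit (adjusted p = 0.0771), and with irradiation alone neither Cldn4 (adjusted p = 0.104) nor Cldn7 (adjusted p = 0.155) did. No paired analysis was possible because each group has 1 array, and leaving out an array leaves the fit no residual degree of freedom. The cause of these changes was not tested beyond the scaling, floor or threshold itself. Signal near the floor limits Cldn7, Cldn8 and the dim probe sets of Cldn1, Ocln, Cgn and F11r. In irradiated KO-labelled cells Cldn7 read 40.6 units and the dim Ocln probe set 25.1 units.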
